A study of Mus musculus with 9 samples.

Results

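The expression of 10 genes that encode the TLR2 heterodimer receptors and their proximal adaptors was examined in mouse splenic monocytes. The genes were Tlr2, Tlr1, Tlr6, Cd14, Cd36, Tirap, Myd88, Irak4, Irak1 and Traf6. They were chosen by name for their place in the pathway, and each matched 1 of the 46072 rows of the deposited tables, of which 26108 were above 0 in at least 1 library.

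RNA was sequenced from monocytes of female C57BL/6 mice of 8 to 10 weeks, with 3 mice in each of 3 groups. In the Con group, water was given by gavage over 6 days. In the Van group the gavage held vancomycin, an antibiotic that is poorly absorbed from the gut, in a daily dose of 2 mg per mouse over the same 6 days. VanLip mice received the same vancomycin gavage and then L654, a serine-glycine lipodipeptide made by Bacteroidota and a ligand of TLR2, by retro-orbital injection on days 7, 9 and 11. All groups rested without antibiotic before the spleens were taken, and the cells were not stimulated in culture. Whether the Con and Van mice of the RNA sequencing received a vehicle injection is not given in the labels. The comparison of Van with Con addressed how vancomycin, followed by a rest without it, changed the monocytes. That of VanLip with Van addressed the effect of giving a bacterial lipid in that rest. VanLip and Con differed in both vancomycin and the lipid, so their comparison addressed the 2 treatments together. Below, Van/Con stands for Van against Con, and likewise for the other pairs.

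TLR2 is a cell surface receptor that recognises bacterial lipoproteins and lipopeptides as a pair with TLR1 or TLR6. CD14 and CD36 bind ligand and pass it to the pair. Once the receptors come together, TIRAP brings MyD88 to them, MyD88 assembles the kinases IRAK4 and IRAK1, and the ubiquitin ligase TRAF6 carries the signal on to NF-kB and the MAP kinases.

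The 2 partner receptors of TLR2 are neighbouring genes with stretches of identical sequence, so their reads could be exchanged. On GRCm38, Tlr1 (ENSMUSG00000044827) lies at chr5:64924679-64933563 and Tlr6 (ENSMUSG00000051498) at chr5:64952031-64960097, both on the minus strand, and the coding sequence of each lies in 1 exon. Their coding sequences of 2385 and 2418 bases held 10 identical runs of at least 25 bases, 899 bases in all, whereas neither shared a run of that length with Tlr2. The longest run is shown because a read inside it cannot be assigned by its own sequence, although the other read of its pair may lie outside. It held 229 bases at chr5:64925537-64925765 in Tlr1 and chr5:64953828-64954056 in Tlr6.

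Run of Tlr1 and Tlr6: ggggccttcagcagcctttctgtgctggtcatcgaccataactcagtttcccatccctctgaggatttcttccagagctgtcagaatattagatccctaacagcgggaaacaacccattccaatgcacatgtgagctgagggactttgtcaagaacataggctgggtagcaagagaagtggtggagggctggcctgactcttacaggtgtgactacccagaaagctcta

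Single bases interrupted the shared sequence, and these are what tells the genes apart there. In the following windows of 51 bases, read 5′ to 3′ on the minus strand of GRCm38, the capital marks the base that differs. The changes from Tlr1 to Tlr6 were C1467T and G1697A, at the ends of the longest run, and G1943A, at the end of a run of 208 bases, with positions counted from 1 at the A of the Tlr1 start codon.
Tlr1 at C1467T: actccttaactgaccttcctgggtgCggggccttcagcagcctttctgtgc
Tlr6 at C1467T: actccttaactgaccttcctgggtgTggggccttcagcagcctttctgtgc
Tlr1 at G1697A: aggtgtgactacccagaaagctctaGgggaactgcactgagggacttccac
Tlr6 at G1697A: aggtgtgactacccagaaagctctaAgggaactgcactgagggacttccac
Tlr1 at G1943A: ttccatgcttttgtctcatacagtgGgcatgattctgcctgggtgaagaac
Tlr6 at G1943A: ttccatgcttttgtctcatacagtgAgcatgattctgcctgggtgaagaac

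Of all windows of 100 bases along the longest coding transcript, 8.85% in Tlr1 and 7.24% in Tlr6 were shared between both genes. At 150 bases these shares were 4.83% and 3.94%. Both shares are for single reads, whereas the libraries were sequenced as read pairs. The levels of Tlr1 and Tlr6 given below are therefore uncertain to the extent that reads from the shared stretches were split between them.

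Total expected counts lay between 43070361 and 61383806 in Con and Van, and between 170503470 and 184720704 in VanLip. The low counts clustered at 1.33 in every Con or Van library and at 2.00 in those of VanLip, from which reads of 100 and 150 bases were inferred, although the sequencing is described with a single read length for all libraries. With these lengths the totals came to 16151385 to 23018927 fragments in Con and Van and 42625868 to 46180176 in VanLip. Depth, and the read length so inferred, thus cannot be told apart from L654 in either comparison with VanLip.

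The 7 monocyte markers were expressed in all libraries, with a sum of 7715 to 10750 FPKM (fragments scaled to transcript length and library size). Lyz2 alone gave 6428 to 9154 FPKM of it, so the sum says little about the others. Their means over the 9 libraries ran from 22.4 FPKM for Fcgr1 to 576.8 FPKM for Csf1r. Of 5 classical monocyte markers, DESeq2 called 1 higher and 1 lower for Van/Con, namely Vcan at 1.54 and Ccr2 at -0.83 on the log2 scale, where 4.34% of all genes were called. For VanLip/Van it called 2 higher, Ccr2 at 1.04 and Ly6c2 at 0.39, while Vcan was at -0.41 without a call, and 9.86% of all genes were called. The sum of 4 erythroid markers was 56.84 to 114.4 FPKM in Con, 188.8 to 429.5 in Van and 154.9 to 639.6 in VanLip. The sum of 4 red pulp macrophage markers was 440.5 to 556.5 FPKM in Con, 574.7 to 726.5 in Van and 468.3 to 621.2 in VanLip. Sums of 4 conventional and 3 plasmacytoid dendritic cell markers lay at 12.19 to 18.16 and 2.018 to 10.92 FPKM over all libraries. Of these 7 markers, Clec9a, Xcr1 and Siglech were called lower for Van/Con, at -1.12, -0.85 and -0.89 on the log2 scale. Without a call, Ccr9 and Zbtb46 were at -0.64 and -0.18, and Flt3 and Klk1 at 0.25 and 0.11. For VanLip/Van, Clec9a and Siglech were called higher, at 0.67 and 0.85. The sum of 5 neutrophil markers was 1.876 to 10.81 FPKM, with Ly6g at 0 in each library. The part of these differences in the results below was not tested, and in bulk samples fewer cells of a type and less RNA per cell cannot be told apart.

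All 10 genes were expressed in every library, at levels that spanned 27.89-fold in mean FPKM, a scale that allows genes to be compared because it is per length. Cd14, the co-receptor that presents ligand to TLR2, had the highest level, with a mean over the 9 libraries of 157.3 FPKM. Cd36, a scavenger receptor that assists the TLR2 and TLR6 pair, followed with 90.85 FPKM. Both kept these places in each of the 9 libraries.

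The adaptor Myd88 and the receptor Tlr2 came next, with mean levels of 61.0 and 57.84 FPKM. Their order was not fixed, as Myd88 was above Tlr2 in 6 of 9 libraries. The kinases Irak1 and Irak4 had mean levels of 38.63 and 28.08 FPKM and held the same order in all 9 libraries.

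The partner receptors were far lower than Tlr2. Tlr1 had a mean level of 13.35 FPKM and Tlr6 of 9.93 FPKM, with Traf6 between them at 11.02 FPKM. Tlr1 exceeded Traf6 in 8 of 9 libraries and Traf6 exceeded Tlr6 in 8 of 9, so these neighbours lay close to their spread. Tirap, the adaptor that bridges the receptors and MyD88, had the lowest level in every library, with a mean of 5.64 FPKM. The lowest expected count of Tirap in a library was 1104, or 414 fragments, for a counting error of 4.91%. In the other 9 genes the largest counting error in a library was 1.47% for Cd36 to 3.88% for Tlr6.

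**Figure D1:**
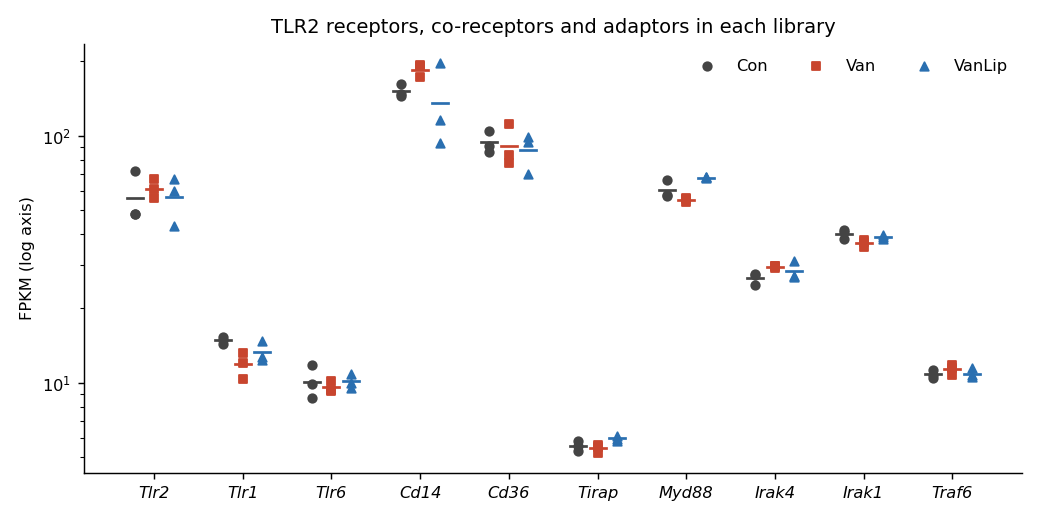
FPKM of each of the 10 genes in each library, on a log axis, with Con as grey circles, Van as red squares and VanLip as blue triangles, and a short line at each group mean (n = 3). Cd14 and Cd36 sit highest, at means of 157.3 and 90.85 FPKM, and Tirap lowest, at 5.64.

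Calls among the 10 genes lay near the share called among all genes. A gene was called where the DESeq2 Wald test, with Benjamini-Hochberg adjustment over all genes, gave an adjusted p no higher than 0.05. For Van/Con 0 of the 10 genes were called, where 4.34% of all genes tested were called. For VanLip against Con, 0 of the 10 were called, beside 6.67% of all genes tested. For VanLip against Van, 1 of the 10 was called, beside 9.86% of all genes tested, and this was Myd88, which was higher in VanLip. Myd88 was also the 1 member called by the DESeq2 likelihood-ratio test for any difference among the groups, in which 13.5% of all genes tested were called. It was not called by edgeR (adjusted p = 0.07867) or limma, nor by DESeq2 without Van replicate 2 or VanLip replicate 2.

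The numbers at an unadjusted p under 0.05 were 1, 0 and 2 of the 10 genes in the same order of comparisons, namely Tlr1 for Van against Con, and Myd88 and Tirap for VanLip against Van. Over all genes, 2822, 3315 and 3930 of 25420 were under that p, which is 11.1%, 13.04% and 15.5%. The edgeR quasi-likelihood test also called 0, 0 and 1, beside 1.21%, 1.78% and 5.07% of all genes it tested. The median log2 fold change of the 10 genes was -0.04, -0.02 and -0.01, beside -0.01, 0.01 and 0.01 over all genes tested. Groups that did not overlap were found in 4 of the 10 genes for Van/Con, in 1 for VanLip/Con and in 2 for VanLip/Van. The background of such genes was 24.1%, 24.5% and 28.6%, over genes whose normalized count averaged 50 or more.

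**Figure D2:**
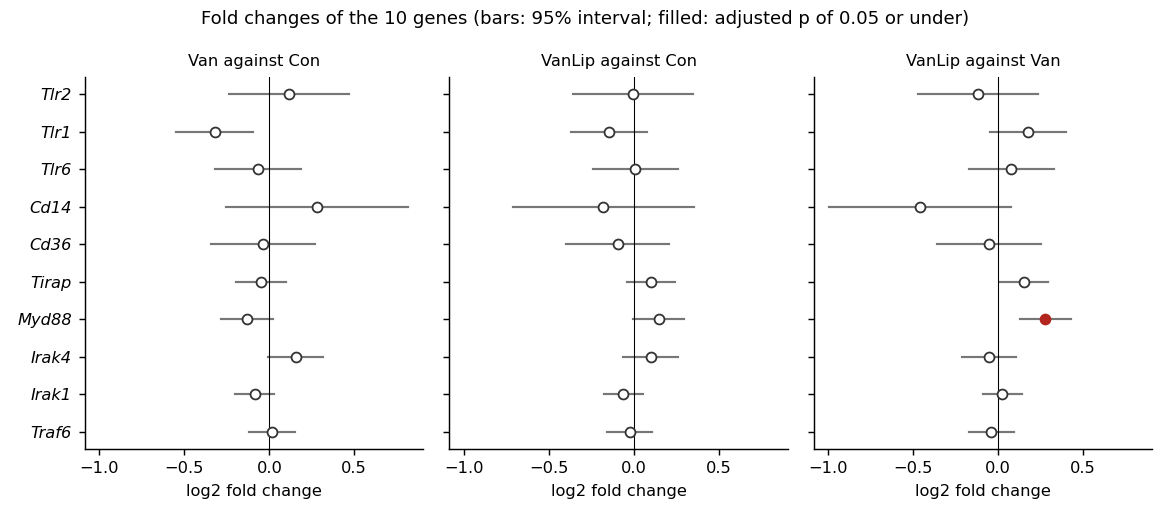
Log2 fold change of each gene from DESeq2 (points) with its 95% interval (bars) for Van/Con, VanLip/Con and VanLip/Van, with filled points for called genes. The filled point is Myd88 in VanLip against Van, at 0.28, and the interval of Tlr1 in Van against Con lies below 0, at -0.55 to -0.09.

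Tlr2 itself (ENSMUSG00000027995; chr3:83836272-83841767, minus strand) did not differ beyond its spread. Its normalized counts, which are scaled for library size, were 20898, 13962 and 13677 in Con, 19305, 17105 and 16139 in Van, and 19193, 16840 and 12275 in VanLip. The groups overlapped in full, with Con replicate 1 the highest and VanLip replicate 3 the lowest of all 9 libraries.

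The log2 fold change of Tlr2 was 0.11 for Van against Con, with a 95% interval of -0.24 to 0.47 and a DESeq2 adjusted p of 0.8911, and it lay between 0.0076 and 0.34 when a library was left out. For VanLip against Con it was -0.01, or 0.02 with TMM library sizes, with an interval of -0.36 to 0.35 and a DESeq2 adjusted p of 0.9914. For VanLip against Van it was -0.12, with an interval of -0.47 to 0.23 and a DESeq2 adjusted p of 0.7969. With 3 mice in each group, changes of Tlr2 within these intervals remained compatible with the data. Without Con replicate 1 the fold change for VanLip against Con was 0.22 (log2), so the direction for Tlr2 turned on single libraries.

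Tlr1, which pairs with TLR2 to recognise triacylated lipopeptides, was lower in Van than in Con before correction. Its normalized counts were 3903, 3538 and 3712 in Con, 3350, 2942 and 2632 in Van, and 3211, 3073 and 3790 in VanLip. Each Van library lay below each Con library, whereas the VanLip libraries spanned both groups.

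For Van against Con the log2 fold change of Tlr1 was -0.32 ± 0.12 (standard error), a difference of -20.0%, lower in 3 of 3 Van libraries. Its unadjusted p in DESeq2 was 0.005589 and its adjusted p was 0.09424, so the difference failed the correction. Leaving out Van replicate 1 or VanLip replicate 3 brought the DESeq2 adjusted p to 0.01737 and 0.0343, and a fit of Con and Van alone to 0.03534, whereas leaving out Van replicate 3 gave 0.385, and over 21 alternatives it ranged from 0.01737 to 0.385. The VanLip fold changes of Tlr1 were -0.15 against Con (DESeq2 adjusted p = 0.5479) and 0.17 against Van (DESeq2 adjusted p = 0.4111). Single libraries moved these values to between -0.24 and -0.09 and between 0.08 and 0.27. The erythroid and red pulp macrophage marker sums were also higher in each Van library than in each Con library. Ccr2, Clec9a, Xcr1 and Siglech were lower without overlap, whereas Vcan and Flt3, from the same lists, were higher without overlap. Groups did not overlap in 24.1% of genes whose normalized count averaged 50 or more. The part of these markers in the value of Tlr1 was not tested.

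Tlr6, which pairs with TLR2 to recognise diacylated lipopeptides, did not differ beyond its spread in any comparison. Its normalized counts were 4058, 2886 and 3283 in Con, 3485, 3111 and 3162 in Van, and 3763, 3323 and 3208 in VanLip. Con held both the highest and the lowest library. The log2 fold changes were -0.07, 0.01 and 0.08 for Van/Con, VanLip/Con and VanLip/Van, with DESeq2 adjusted p of 0.9183, 0.982 and 0.8234. The widest of the 3 intervals was -0.32 to 0.18.

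Because TLR2 works as a pair, the level of each partner was also set against that of Tlr2 within the same library. The ratio of Tlr1 to Tlr2 in FPKM was 0.214, 0.299 and 0.311 in Con, 0.198, 0.199 and 0.185 in Van, and 0.192, 0.207 and 0.342 in VanLip. The Van ratios lay close together and below every Con ratio, and VanLip replicate 3 alone held the highest ratio of all. The mean ratio of the Con libraries was 0.275 ± 0.0529, that of Van 0.194 ± 0.0075 and that of VanLip 0.247 ± 0.0828 (SD, n = 3 each).

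The mean log2 ratio of Tlr1 to Tlr2 differed by -0.49 between Van and Con. The exact two-sided permutation test over libraries gave p = 0.1, and p = 0.4 after adjustment over the 6 ratio tests. The value of 0.1 is the smallest that this test allows with 3 mice against 3. The test could therefore not reach 0.05, and no other test of the ratios was run. The ratio of Tlr6 to Tlr2 averaged 0.183 ± 0.0207 for Con, 0.157 ± 0.00713 for Van and 0.184 ± 0.0316 for VanLip (SD, n = 3 each). Its exact permutation p was 0.2 for Van/Con, 0.9 for VanLip/Con and 0.2 for VanLip/Van, with adjusted values of 0.4, 0.9 and 0.4. For Tlr1 to Tlr2 the differences of VanLip from Con and from Van were -0.18 and 0.30 on the log2 scale, with exact permutation p of 0.7 and 0.3, or 0.84 and 0.45 adjusted. Single libraries set their size, as without VanLip replicate 3 they were -0.44 and 0.04, and without VanLip replicate 1 they were -0.03 and 0.46.

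**Figure D3:**
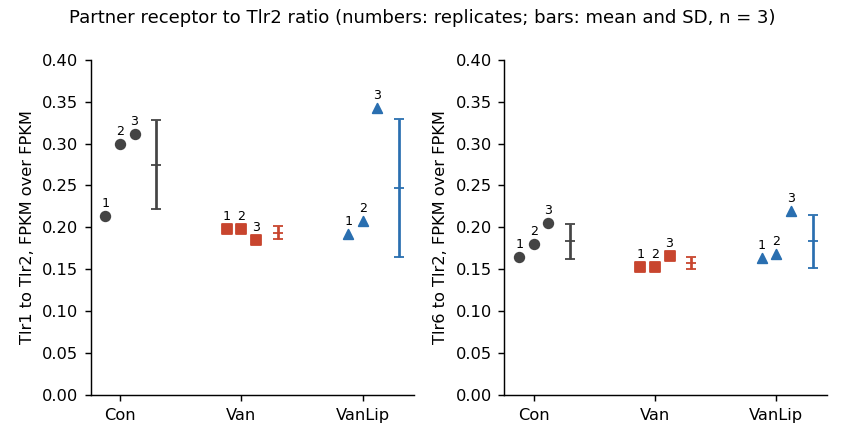
Ratio of the FPKM of Tlr1 (left) and Tlr6 (right) to that of Tlr2 in each library, marked with its replicate number, with the group mean and SD (n = 3) beside the points. The 3 Van libraries cluster at 0.185 to 0.199 for Tlr1, below the Con libraries at 0.214 to 0.311, and VanLip spans 0.192 to 0.342.

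The co-receptor Cd14 (ENSMUSG00000051439; chr18:36725067-36726798, minus strand) varied more than any of the other 9 genes. Its normalized counts were 22400, 24451 and 21550 in Con and 28871, 25328 and 28959 in Van. In VanLip they were 29517, 16978 and 13923, so that VanLip replicate 1 was the highest of all 9 libraries and the other 2 were the lowest. The coefficient of variation of Cd14 was 6.54% in Con, 7.47% in Van and 41.0% in VanLip. Within Con it was below those of Tlr2, Tlr6, Cd36 and Myd88, and within Van below those of Cd36, Tlr1 and Tlr2.

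All 3 Van libraries were above all 3 Con libraries for Cd14, and the log2 fold change was 0.28 with a 95% interval of -0.25 to 0.82 and a DESeq2 adjusted p of 0.7517. That fit used 1 spread for all 3 groups. In a fit of Con and Van alone Cd14 had the same fold change of 0.28, but its standard error was 0.08 and its DESeq2 adjusted p was 0.007764. For VanLip the log2 fold changes of Cd14 were -0.18 against Con (DESeq2 adjusted p = 0.8072) and -0.46 against Van (DESeq2 adjusted p = 0.3413). Without VanLip replicate 1 they were -0.56 and -0.84, with DESeq2 adjusted p of 1.685e-05 and 7.653e-13. Without VanLip replicate 3 they were 0.03 and -0.25, with DESeq2 adjusted p of 0.9602 and 0.4345. No label gives a reason to set either library aside.

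Cd36 (ENSMUSG00000002944; chr5:17781690-17888801, minus strand) overlapped in all groups. Its normalized counts were 26793, 21803 and 22788 in Con, 28451, 19882 and 21138 in Van, and 24397, 24506 and 17893 in VanLip. The log2 fold changes of -0.04, -0.10 and -0.06 for Van/Con, VanLip/Con and VanLip/Van were below their standard errors of 0.16. Cd36 shared its lowest library, VanLip replicate 3, with Tlr2, Cd14 and Traf6.

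Myd88 (ENSMUSG00000032508; chr9:119335934-119341411, minus strand), the adaptor common to most Toll-like receptors, was higher in VanLip than in Van. Its normalized counts were 12600, 10771 and 10730 in Con, 10126, 10267 and 10736 in Van, and 12668, 12475 and 12583 in VanLip. The VanLip libraries lay above all Van libraries, with a coefficient of variation of 0.77%, under the counting error of at least 1.15%, and Con replicate 1 reached their level while the other Con libraries stood with Van.

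Myd88 had a log2 fold change of 0.28 ± 0.08 (standard error) for VanLip against Van, 21.2% higher, with a 95% interval of 0.13 to 0.43 and a DESeq2 adjusted p of 0.006274. The direction held in 3 of 3 VanLip libraries. Against Con, Myd88 differed by 0.15 in VanLip and by -0.13 in Van on the log2 scale, with DESeq2 adjusted p of 0.2909 and 0.4481. The value for Van lay between -0.17 and -0.05 when a library was left out. In 17 of 21 alternatives the difference between VanLip and Van was called, with an adjusted p from 3.056e-05 to 0.09791. It was not called without Van replicate 1 or without Van replicate 2, with log2 fold changes of 0.26 and 0.27 and DESeq2 adjusted p of 0.06304 and 0.06181. Without Con replicate 1, Myd88 was also called for VanLip against Con, at 0.23 on the log2 scale with a DESeq2 adjusted p of 0.0139.

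Myd88 shares 290 of its 2576 exon bases with Acaa1a, a gene for a peroxisomal thiolase on the opposite strand. Acaa1a was itself higher in VanLip, by 0.20 against Van and 0.27 against Con on the log2 scale, with DESeq2 adjusted p of 0.006647 and 0.0001876. The libraries were made with a kit that marks strand, but whether strand was used in counting is not stated, and the part of Acaa1a in the value of Myd88 was not tested. The sum of the 5 classical monocyte markers was also higher in VanLip, at 835.3 to 998.7 FPKM against 492.4 to 802.2 FPKM in Van, with positive fold changes in 4 of the 5 markers and calls in 2. Other markers called for VanLip/Van were Cx3cr1 at 0.43, Eno3 at 0.60, Clec9a at 0.67, Siglech at 0.85 and the red pulp macrophage marker Vcam1 at -0.50. The part of all these in the value of Myd88 was not tested.

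**Figure D4:**
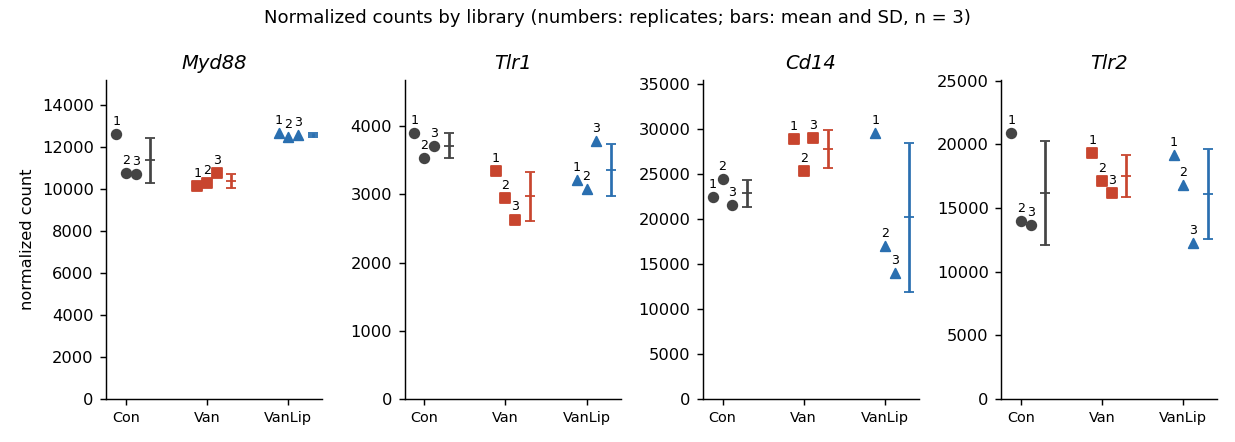
Normalized counts of Myd88, Tlr1, Cd14 and Tlr2 in each library, marked with its replicate number, with the group mean and SD (n = 3) beside the points and every axis starting at 0. The VanLip libraries of Myd88 sit together at 12475 to 12668 above Van, whereas those of Cd14 run from 13923 to 29517.

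Tirap (ENSMUSG00000032041; chr9:35184551-35200291, minus strand) had normalized counts of 2183, 2101 and 2049 in Con, 1980, 2021 and 2122 in Van, and 2316, 2185 and 2288 in VanLip. VanLip lay above both other groups without overlap. For VanLip against Van the log2 fold change was 0.15 with a 95% interval of 0.01 to 0.29, an unadjusted p in DESeq2 of 0.03812 and an adjusted p of 0.2015. Against Con the values were 0.10 and a DESeq2 adjusted p of 0.4987, and Van differed from Con by -0.05. Of its 4929 exon bases, Tirap shares 446 with the antisense gene Gm39318, which was not analysed here, and 39 with Srpr, both on the opposite strand.

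Of the kinases, Irak4 (ENSMUSG00000059883; chr15:94543643-94581815, plus strand), which phosphorylates IRAK1, had normalized counts of 6850, 7465 and 7219 in Con, 7983, 7889 and 8097 in Van, and 8521, 7270 and 7267 in VanLip. Each Van library was above each Con library, with a log2 fold change of 0.15, a 95% interval of -0.01 to 0.32 and a DESeq2 adjusted p of 0.367. In VanLip the log2 fold changes were 0.10 against Con and -0.06 against Van, with DESeq2 adjusted p of 0.5751 and 0.7907, and they lay between 0.0175 and 0.14 and between -0.14 and -0.017 when a library was left out. VanLip replicate 1 again stood above the other VanLip libraries, as for Cd14. Irak4 shares 395 exon bases with Twf1 on the opposite strand.

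Irak1 (ENSMUSG00000031392; chrX:74013914-74023918, minus strand), the kinase that binds TRAF6, had normalized counts of 12841, 11744 and 12050 in Con, 11685, 11155 and 11650 in Van, and 11839, 11425 and 11803 in VanLip. Each Van library was below each Con library, but by a log2 value of only -0.09, with a 95% interval of -0.20 to 0.03 and a DESeq2 adjusted p of 0.551. The fold changes of Irak1 in VanLip were -0.06 against Con and 0.02 against Van.

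Traf6 (ENSMUSG00000027164; chr2:101678429-101701669, plus strand) was the steadiest of the 10 genes, with normalized counts of 5891 to 6595 over all 9 libraries, a range of 1.12-fold. Its log2 fold changes were 0.02, -0.02 and -0.04 for Van/Con, VanLip/Con and VanLip/Van, and the 3 intervals lay within -0.17 and 0.15. With TMM library sizes the value for VanLip/Con was 0.0013.

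Libraries differed from each other more in the receptors and co-receptors than in the signalling genes. The highest library was 2.12 times the lowest in normalized count for Cd14, 1.70 times for Tlr2, 1.59 times for Cd36, 1.48 times for Tlr1 and 1.41 times for Tlr6. For the signalling genes this range was 1.25 in Myd88, 1.24 in Irak4, 1.17 in Tirap, 1.15 in Irak1 and 1.12 in Traf6. Con replicate 1 was the highest library for Tlr2, Tlr1, Tlr6 and Irak1, and VanLip replicate 1 for Cd14, Tirap, Myd88 and Irak4.

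The genes whose normalized counts followed each receptor most closely over the 9 libraries were also listed, among 9409 genes with a mean of at least 500. These are descriptions, since the libraries share groups and depth. For Tlr2 they were Phkg2, Sppl3 and Dph3, with Pearson's r of 0.98, 0.95 and 0.94. For Tlr1 they were Kynu, Ahcyl1 and Calcrl, at 0.97, 0.95 and 0.94, and for Tlr6 they were Rnf149, Cnbp and Pbdc1, at 0.96, 0.92 and 0.90. Tlr2 itself had an r of 0.74 with Tlr6, 0.77 with Cd36 and -0.20 with Tlr1.

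The other genes of the pathway were taken from 4 lists of 64 genes in all. They comprised 24 genes that act with MyD88, 19 genes that TLR2 stimulation induces, 12 accessory genes and 9 other Toll-like receptors. DESeq2 called 7, 5 and 12 of the 64 for Van/Con, VanLip/Con and VanLip/Van, beside the 4.34%, 6.67% and 9.86% of all genes given above. The edgeR quasi-likelihood test called 0, 2 and 4 of them, beside its 1.21%, 1.78% and 5.07% of all genes. The comparisons share groups, so their counts are not independent. Of the 24 calls, 7 were made in each of the 9 fits that left out 1 library: Tab1, Mapk14, Socs3 and Tlr8 in VanLip/Van, and Socs3, Il1a and Tlr11 in VanLip/Con. The other 17 were made in 2 to 7 of these fits.

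Among the 24 MyD88 pathway genes, DESeq2 called 1 higher and 2 lower in Van than in Con, beside the 4.34% called over all genes. Mapk14, which encodes the p38 alpha kinase, rose by a log2 value of 0.18 (DESeq2 adjusted p = 0.01948). Ikbkg, the regulatory subunit of the IKK complex, and Mapk9, a JNK kinase, had fold changes of -0.25 and -0.26 (DESeq2 adjusted p = 0.0204 and 0.04045). In VanLip against Van, Ikbkg was higher by 0.23 and Mapk14 lower, at -0.24, on the log2 scale. The same Van libraries enter both comparisons. In the 9 fits that left out 1 library, the Van/Con calls of Mapk14, Ikbkg and Mapk9 were made 3, 5 and 4 times. The VanLip/Van calls of Ikbkg and Mapk14 were made 4 and 9 times.

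Tab1, which activates the kinase TAK1 below TRAF6, was higher in VanLip than in both other groups. Its normalized counts were 1152, 1325 and 1169 in Con, 1150, 1100 and 1195 in Van, and 1589, 1528 and 1477 in VanLip. All VanLip libraries were above all others, with log2 fold changes of 0.33 against Con and 0.41 against Van (DESeq2 adjusted p = 0.01102 and 0.0003359). Nfkbia, the NF-kB inhibitor, and Peli1, a ubiquitin ligase that acts on IRAK1, were lower in VanLip than in Van, at -0.40 and -0.26 (DESeq2 adjusted p = 0.03905 and 0.04449). The call of Peli1 was made in 2 of the 9 fits that left out 1 library, and that of Nfkbia in 5. Without Van replicate 1, Nfkbia was at -0.25 with a DESeq2 adjusted p of 0.2846.

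Of the 19 TLR2-inducible genes, DESeq2 called 0 higher and 2 lower in Van than in Con, beside 4.34% of all genes, namely the costimulatory receptor Cd40, at -0.58, and the cytokine Il1a, at -0.66 (DESeq2 adjusted p = 0.008831 and 0.01862). In VanLip, Socs3, an inhibitor of cytokine receptor signalling, was higher by 0.53 against Con and 0.54 against Van (DESeq2 adjusted p = 0.0005128 and 0.0002353). Cd40 was higher in VanLip than in Van, by 0.48, and the chemokine Ccl4 lower, at -0.66 (DESeq2 adjusted p = 0.02581 and 0.03243). Il1a stayed below Con in VanLip, at -0.78 (DESeq2 adjusted p = 0.001417). Fold changes were negative for 16 of the 19 genes in VanLip/Con and in VanLip/Van, with medians of -0.20 and -0.14 beside 0.01 and 0.01 over all genes tested, and 2 and 3 of the 19 were called beside 6.67% and 9.86% of all genes. Tnf and Il6, which were added after their values were seen, were among the genes with negative fold changes in VanLip/Con and in VanLip/Van. Neither was called in any of the 3 comparisons. The same VanLip libraries enter VanLip/Con and VanLip/Van.

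Among the 12 accessory genes, Hsp90b1, the chaperone needed for folding of Toll-like receptors, was higher in Van than in Con by 0.36 and differed by -0.32 between VanLip and Van (DESeq2 adjusted p = 0.005595 and 0.008388). The integrin Itgav went the other way, at -0.43 and 0.37 (DESeq2 adjusted p = 0.02066 and 0.04179), with these calls made in 5 and 3 of the 9 fits that left out 1 library. DESeq2 called 2 of the 12 for Van/Con and 2 for VanLip/Van, beside 4.34% and 9.86% of all genes. In these comparisons 5 and 4 of the 12 were at an unadjusted p under 0.05, beside 11.1% and 15.46% of all genes. For VanLip against Con, 0 of the 12 were called by DESeq2, and 0 were at an unadjusted p under 0.05, beside 6.67% and 13.04% of all genes.

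Of the 9 other Toll-like receptors, DESeq2 called 0 for Van against Con, with 4 at an unadjusted p under 0.05, beside 4.34% and 11.1% of all genes. It called 2 lower in each comparison with VanLip, beside 6.67% and 9.86% over all genes. Tlr8 was lower at -0.29 against Con and -0.43 against Van (DESeq2 adjusted p = 0.009312 and 5.145e-06). Tlr11 was lower than in Con, at -0.91, and Tlr13, the receptor for bacterial ribosomal RNA, lower than in Van, at -0.22 (DESeq2 adjusted p = 8.512e-05 and 0.03202). The call of Tlr13 was made in 3 of the 9 fits that left out 1 library, and that of Tlr8 against Con in 6. Of the 4 conventional dendritic cell markers, 3 were lower in VanLip than in Con. These were Xcr1, called at -0.73, and Clec9a and Zbtb46, at -0.45 and -0.10 without a call. Flt3, the marker with the highest level of the 4, was at 0.315 without a call. Their sum, to which Flt3 gave the most, was 12.37 to 18.16 FPKM in VanLip and 12.19 to 13.42 in Con. The part of these markers in the value of Tlr11 was not tested.

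**Figure D5:**
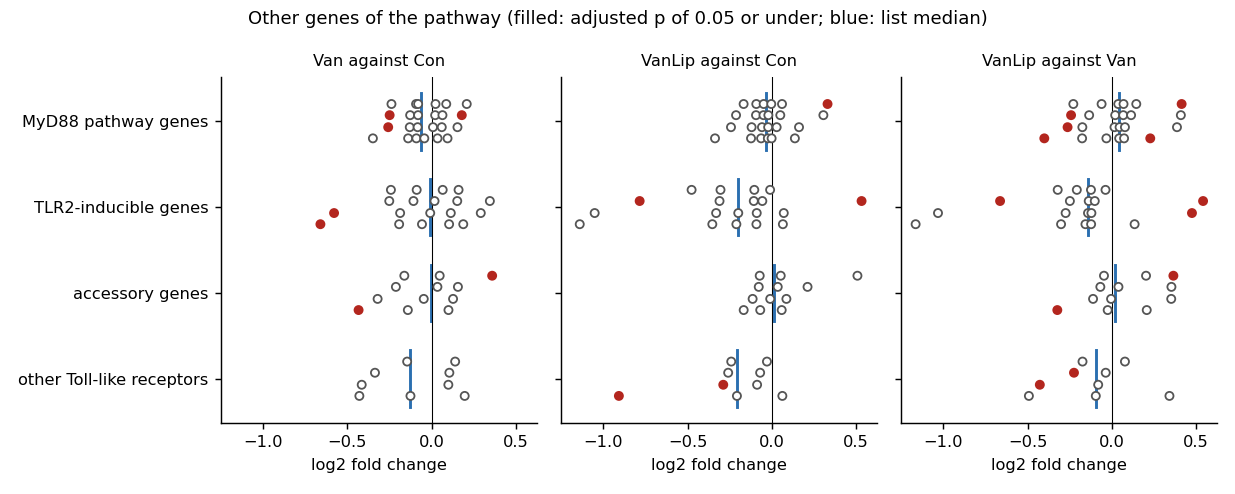
Log2 fold changes from DESeq2 of the 64 pathway genes by list in the 3 comparisons, with filled points for called genes and a blue line at the median of each list. The filled points number 7, 5 and 12, and the TLR2-inducible list has medians of -0.20 in VanLip/Con and -0.14 in VanLip/Van.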

How the data were processed

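Per the labels and the study's methods, the authors isolated splenic monocytes by negative magnetic selection to a purity of 90%, made stranded messenger RNA libraries, and aligned reads to GRCm38 with HISAT2 2.2.1. They deposited FPKM values per gene from StringTie 2.1.3. A second deposited table held expected counts from tximport, which are not normalized and need not be whole. SAMtools 1.9 and DESeq2 1.38.3 are named in the submitters' processing notes. The annotation release is not given in the sources used here, and coordinates came from GENCODE for GRCm38.

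Expected counts were rounded and tested with the Wald test of DESeq2 1.42.0 (R 4.3.3), with all 9 libraries in 1 fit, group as the only term and Benjamini-Hochberg adjustment over all genes, and an adjusted p no higher than 0.05 made a call. A likelihood-ratio test served for any difference among groups. Ratios of FPKM were tested with exact permutation tests. The tests were tested on simulated data. Alternatives were edgeR 4.0.16, limma 3.58.1 on log2 FPKM with pseudocounts of 1 or 0.1, TMM sizes, filters, fits of 2 groups, fragments, thinned VanLip libraries, a replicate block and leaving out each library; a transcript length offset was added after seeing the data. The groups were taken from the sample titles, which number the replicates without naming litters or days. P-values are two-sided and measure the spread between these mice.

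All 10 members were named in every comparison, with called list genes, at most 5 per list and comparison, and the 3 genes most correlated with each receptor. Of list genes with 2 rows, the row with the higher mean FPKM was used. The members and lists were chosen with earlier results of these data known.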

Additional observations from a re-analysis of the deposited data

How the results depend on the processing

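The results that answer a comparison were counts of called genes and differences in log2 FPKM ratio. Under alternatives, 162 of their 200 values were counts that stayed within 1.5 times or ratio differences that kept their sign. A further 34 counts moved by more, and 4 ratio differences turned sign. Whether a ratio stayed on its side of the p threshold was not part of this tally. Of the values of single pathway genes, 178 lost their call. The causes of the changes below were not tested.

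For Van against Con the number of the 10 genes called was 0, and 2 (Cd14 and Tlr1) when only both groups compared were fitted. Leaving out 1 library gave 0 to 1 for Van against Con, 0 to 1 for VanLip against Con, 0 to 2 for VanLip against Van and 0 to 1 for any difference. For VanLip against Van, limma on log2 (FPKM + 1) and (FPKM + 0.1) called 0 of them. For any difference among groups, edgeR and limma with each pseudocount or filter called 0, as did DESeq2 without Van replicate 2 or VanLip replicate 2.

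Pathway list genes called for Van against Con numbered 7, and 0 with edgeR and with the 3 limma settings. Leaving out 1 library gave 1 to 9: 3, 4 and 2 without Con replicates 1, 2 and 3, and 1 and 2 without Van replicates 2 and 3, fits that called 541, 501, 433, 425 and 487 of all genes where the full fit called 803. For VanLip against Con, edgeR called 2, limma 0, 0 and 2, and leaving out 1 library gave 4 to 13, with 13 without VanLip replicate 3, where 1276 of all genes were called against 1104. For VanLip against Van, edgeR called 4 and limma 4, 2 and 5, while leaving out 1 library gave 8 to 13.

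Over all genes, edgeR called 204, 300 and 855 in the order above where DESeq2 called 803, 1104 and 1777, and limma on log2 (FPKM + 1) called 92, 237 and 688. The VanLip/Con calls split into 494 higher and 610 lower genes, and into 657 and 500 under TMM scaling, and those of VanLip/Van into 826 and 951, and into 1013 and 809.

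With a replicate block the members called were 0, 0 and 1, with Myd88 at an adjusted p of 0.02146 by DESeq2. Same-numbered libraries had correlations of deviations of -0.065 to 0.123, those of different number -0.141 to 0.128, so the numbers were not taken to pair the mice.

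Some fold changes turned sign. The log2 ratio of Tlr6 to Tlr2 in VanLip against Con was -0.0044, and 0.0232 from counts per base, with -0.1414 to 0.0811 when a library was left out. That of Tlr1 to Tlr2 ranged from -0.4446 to -0.0262 for VanLip/Con and from 0.0409 to 0.4593 for VanLip/Van. Tlr2 in VanLip against Con was 0.0031 with edgeR and 0.0169 with TMM sizes. Tlr6 in VanLip against Con was -0.0143, -0.0148 and -0.0143 with limma, -0.0524 with thinned VanLip libraries and -0.0145 with the length offset. With TMM sizes, Traf6 and Ikbkg in VanLip against Con were 0.0013 and 0.0034.

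Leaving out 1 library gave these log2 ranges for Van against Con: -0.1748 to 0.0772 for Tlr6, -0.2138 to 0.0604 for Cd36, -0.0234 to 0.0471 for Traf6, -0.0355 to 0.0694 for Peli1, -0.0881 to 0.141 for Nfkbia, -0.0167 to 0.4139 for Ccl4 and -0.0767 to 0.0735 for Socs3. For VanLip against Con they were -0.1525 to 0.2208 for Tlr2, -0.097 to 0.155 for Tlr6, -0.5619 to 0.0276 for Cd14, -0.1699 to 0.039 for Cd36, -0.0559 to 0.0128 for Ikbkg, -0.2473 to 0.0093 for Cd40, -0.0422 to 0.0755 for Hsp90b1, -0.1485 to 0.0536 for Itgav and -0.0489 to 0.0058 for Tlr13. For VanLip against Van they were -0.2672 to 0.0401 for Tlr2, -0.1556 to 0.119 for Cd36, -0.0788 to 0.0012 for Traf6, -0.0156 to 0.0838 for Mapk9, -0.3072 to 0.0181 for Il1a and, without a turn of sign, -0.5043 to -0.2475 for Nfkbia.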

Other observations

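The mean transcript length behind each gene's values, as implied by counts and FPKM, was also compared between libraries. It was constant for Tlr2, at 3014 bases, and for Cd14, at 1572 bases. For Irak1 it ranged from 3083 to 3366 bases, 8.82% of its mean, and for Tlr1 from 2551 to 2720 bases, 6.39% of its mean. For Myd88 it ranged from 1958 to 1998 bases, or 2.06%. With these lengths as an offset, an alternative chosen after seeing the data, Tlr1 had a DESeq2 adjusted p of 0.06222 for Van against Con and Myd88 one of 0.004434 for VanLip against Van.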
